A study of Mus musculus with 6 samples.

Results

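The genes described here are 42 mouse genes that drive and control DNA replication and mitosis. They were measured in cortical neurons labelled as lacking the transcription factor RP58 and in control neurons. They were taken by name, without a threshold on any value, and all 42 were found among the 34289 genes with an annotated transcript. By role they comprised 8 G1 cyclins and cyclin-dependent kinases, 4 inhibitors of these kinases, 14 genes of replication licensing and DNA synthesis, and 16 genes of mitosis. RNA was sequenced from E14.5 cortical neurons, described as postmitotic, in 3 Rp58-/- libraries (mutant) and 3 Rp58+/+ libraries (control). The source label of each library, however, names mouse cortices, which does not by itself mean neurons alone. Rp58 is another name of Zbtb18. Strain, sex, the design of the mutant allele and the way the neurons were isolated are left unstated by the labels. Separate embryos per library are not stated either, so the p-values measure the spread between libraries, which may be technical.

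Proliferating cells pass from G1 through DNA replication to mitosis. D and E cyclins with their kinases inactivate the retinoblastoma protein and free E2F factors, which switch on replication genes. A later wave of genes, many with a CHR element in the promoter, drives mitosis and is repressed in quiescent cells by the DREAM complex. In embryonic cortex, radial glia and intermediate progenitors divide, and the neurons they produce leave the cycle for good. RP58 is a zinc finger repressor of the cortical lineage that is needed for neurons to mature.

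The libraries held between 34645505 and 75892649 estimated counts, and were of 2 types according to the effective transcript lengths in the files. In mutants 1 and 2 and control 1 the difference between length and effective length was 249 bases for every long transcript (fixed-length libraries). In mutant 3 and controls 2 and 3 it lay between 133.7 and 139.2 bases (estimated-length libraries), and mitochondrial transcripts took 17.93% to 19.06% of matched counts, against 3.86% to 5.53% in the fixed-length libraries. Between the types, 70.2% of all genes tested and 32 of the 42 members differed, so genotypes were compared with a term for library type. Zbtb18 was at 46.7, 45.7 and 538 CPM (counts scaled by normalized library size) in mutants 1, 2 and 3, against 1902, 1587 and 1697 CPM in controls 1, 2 and 3. Mutant 3 thus kept 32.8% of the level in controls of its type, while mutants 1 and 2 kept 2.45% and 2.40%.

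In the mutant libraries, 12 of the 42 genes rose and 0 fell (edgeR quasi-likelihood test, Benjamini-Hochberg adjusted p under 0.05 over all 16985 genes tested). That is 28.6% of the members, against 7.92% of all genes tested that rose, 7.01% that fell and 14.9% that changed in either direction. The genes that rose were Ccnd2, Cdkn1a, Cdkn2c, E2f1, Cdc6, Mcm3, Mki67, Top2a, Ccnb1, Plk1, Cenpe and Cenpf. Of these, Cdkn2c passed the low-count filter through the mutant libraries alone. The median log2 fold change, mutant over control, was 0.40 over the members and -0.00 over all genes tested, and it was positive for 32 members and negative for 10. At an unadjusted p under 0.05, 20 members were higher and 1, Gmnn, was lower. DESeq2 with the same term called 14 members higher and 0 lower, where 10.6% of genes rose and 13.7% fell, 24.2% in all, and at an unadjusted p under 0.05 it had 2 lower members, Cdk4 and Pcna.

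These calls rested on the library-type term and on single libraries. Without the term 0 members were called by edgeR, with 9 higher and 0 lower at an unadjusted p under 0.05, while of all genes 1.59% rose and 0.765% fell, 2.36% in all. DESeq2 without the term called 1 member, Cdc6, where of all genes 3.41% rose and 2.28% fell, 5.69% in all. When 1 library was left out, the 42 members and all genes tested were again read side by side. Without control 1, 2 members rose (4.76%, against 4.36% of all genes), and without mutant 3, 2 rose (4.76%, against 5.72%), so in these fits the members' share was near that of all genes. Without control 2, 5 members rose (11.9%, against 4.79%), and without control 3, 4 rose (9.52%, against 4.77%). Without mutant 1, 6 rose (14.3%, against 6.14%), and without mutant 2, 11 rose (26.2%, against 8.86%). Cdc6 was called in all 6 of these fits. E2f1 lost its call without control 1 (adjusted p = 0.0621), and Mki67 lost it without mutant 3 (adjusted p = 0.0507).

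**Figure D1:**
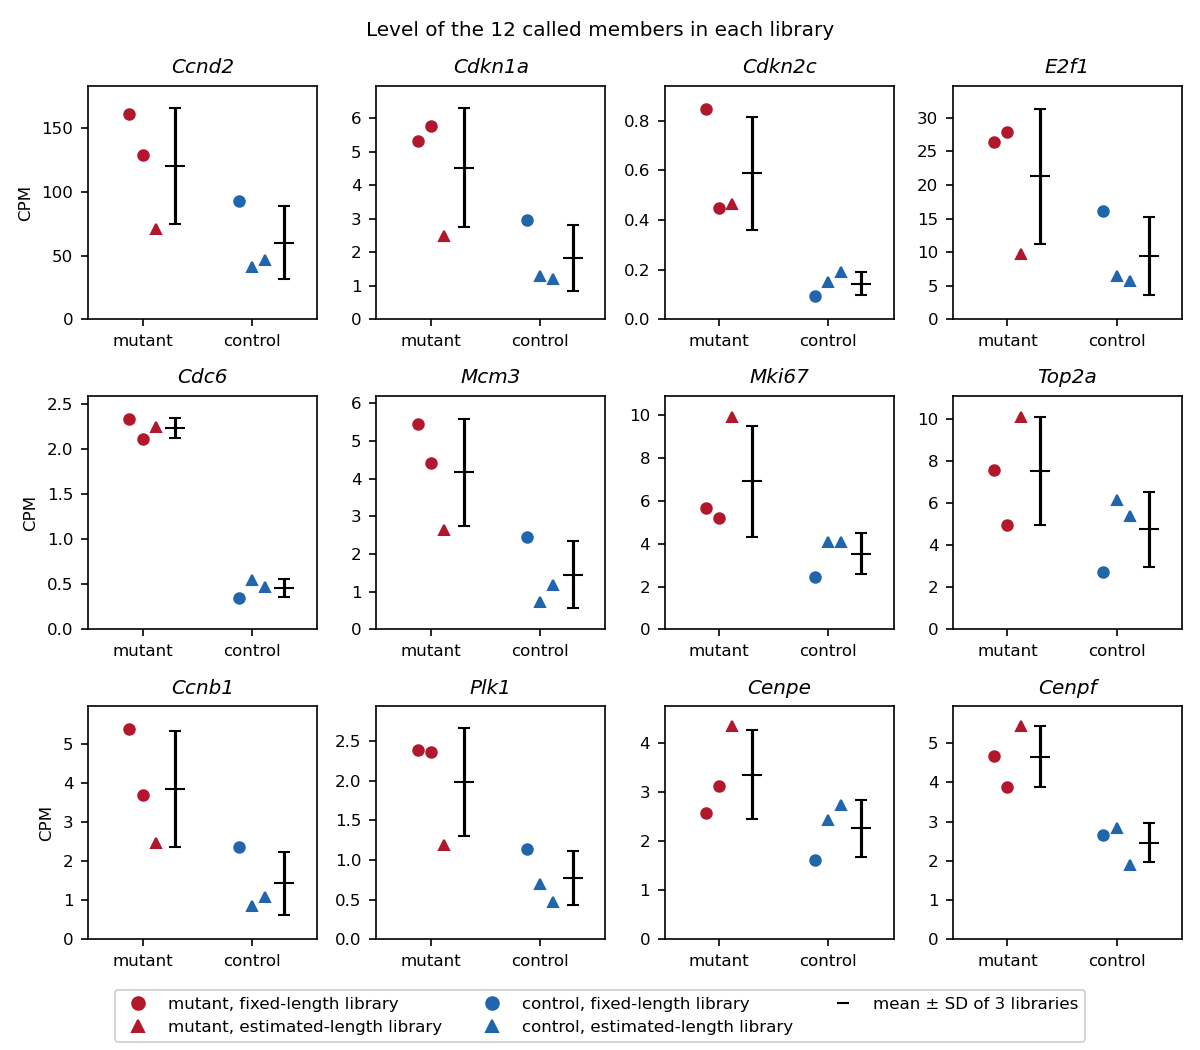
Normalized level (CPM, from 0) of the 12 genes that rose, in each of 3 mutant and 3 control libraries; circles are fixed-length and triangles estimated-length libraries, and black bars give the mean ± SD of 3 libraries. Cdc6 lay between 2.11 and 2.34 CPM in mutants and between 0.350 and 0.551 CPM in controls. For Ccnd2, Cdkn1a, E2f1, Top2a and Cenpe the genotypes separate only within a library type.

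Among the G1 cyclins and kinases, 1 of 8 rose (12.5%, against 7.92% of all genes tested) and 0 fell. The median log2 fold change was 0.28. The gene that rose was Ccnd2, which encodes cyclin D2, a D cyclin of cortical progenitors and a partner of Cdk4 and Cdk6. Ccnd2 stood at 161.2, 129.3 and 71.3 CPM in mutants 1, 2 and 3, and at 93.2, 41.1 and 46.6 CPM in controls 1, 2 and 3. Each mutant was above the controls of its library type, although mutant 3 lay below control 1. The log2 fold change was 0.67 ± 0.11 (SE, adjusted p = 0.00905), and the call was lost without control 1 or mutant 3. Cdk4, the G1 kinase that cyclin D activates, was the most abundant member by counts, with 663.9, 587.2 and 336.1 CPM in mutants and 718.1, 397.1 and 362.4 CPM in controls. Its genotypes overlapped across library types, although each mutant lay below the controls of its own type. The log2 fold change of Cdk4 was -0.19 ± 0.09 (adjusted p = 0.236). Ccnd3, encoding cyclin D3, had 27.8, 23.6 and 13.8 CPM in mutants and 22.6, 10.3 and 9.33 CPM in controls (0.33 ± 0.12 log2, adjusted p = 0.130). The E cyclins Ccne1 and Ccne2, their kinase Cdk2, cyclin D1 (Ccnd1) and the second D-type kinase Cdk6 had log2 fold changes between -0.57 for Cdk6 and 0.50 for Ccnd1, and none passed the test.

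Among the CDK inhibitors, 2 of 4 rose (against 7.92% of all genes tested) and 0 fell, with a median log2 fold change of 0.44. Cdkn1a, which encodes p21, an inhibitor induced by p53, had 5.31, 5.76 and 2.49 CPM in mutants and 2.96, 1.30 and 1.21 CPM in controls. Its log2 fold change was 0.93 ± 0.18 (adjusted p = 0.0181), with the call lost without any 1 of the controls or mutant 3. Cdkn2c, encoding p18INK4c, an inhibitor of Cdk4 and Cdk6, was among the scarcest members. It had 44, 24 and 23 counts in mutants, or 0.849, 0.449 and 0.466 CPM, and 3, 10 and 8 counts in controls, or 0.0954, 0.149 and 0.190 CPM. All 3 mutants lay above all 3 controls, and the gene passed the low-count filter through the mutant libraries alone. The log2 fold change of Cdkn2c was 1.70 ± 0.43 (adjusted p = 0.0447), and the call was lost in each of the 6 fits that left out a library. Cdkn1b, encoding p27, the inhibitor that accompanies cell cycle exit in cortex, had 170.7, 175.4 and 120.4 CPM in mutants and 179.8, 115.4 and 136.9 CPM in controls. Its genotypes overlapped (-0.06 ± 0.09 log2, adjusted p = 0.717). Cdkn2d, encoding p19INK4d, which helps keep neurons out of the cycle, had 47.3, 37.9 and 18.6 CPM in mutants and 48.9, 21.4 and 19.4 CPM in controls (-0.17 ± 0.11 log2, adjusted p = 0.377).

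Of the 14 genes of replication licensing and DNA synthesis, 3 rose (21.4%, against 7.92% of all genes tested) and 0 fell. The median log2 fold change was 0.12. Cdc6, which loads the MCM helicase onto replication origins, showed the largest fold change of all 42 members. It had 121, 113 and 111 counts in mutants, or 2.34, 2.11 and 2.25 CPM, against 11, 37 and 20 counts in controls, or 0.350, 0.551 and 0.474 CPM. The genotypes were well apart in both library types, at 4.77-fold, or 2.25 ± 0.26 on the log2 scale (adjusted p = 0.00191). E2f1, a transcription factor that activates replication genes, had 26.4, 27.8 and 9.68 CPM in mutants and 16.1, 6.45 and 5.73 CPM in controls (0.71 ± 0.11 log2, adjusted p = 0.00739). Mcm3, a subunit of the helicase, had 5.46, 4.41 and 2.65 CPM in mutants and 2.45, 0.729 and 1.18 CPM in controls. All 3 mutants were above all 3 controls for Mcm3 (1.22 ± 0.27 log2, adjusted p = 0.0261), and the call held among the 6 leave-one-out fits only without mutant 2.

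None of the other helicase subunits on the list passed the test. Mcm7 had 124.3, 123.8 and 64.4 CPM in mutants and 123.2, 68.1 and 69.2 CPM in controls, a log2 fold change of -0.04 ± 0.07 (adjusted p = 0.759). The values for Mcm2, Mcm4, Mcm5 and Mcm6 lay between -0.18 for Mcm5 and 0.29 for Mcm6. Pcna, the sliding clamp of the replication fork, had 82.1, 67.8 and 36.9 CPM in mutants and 95.6, 41.4 and 39.9 CPM in controls (-0.25 ± 0.10 log2, adjusted p = 0.171). Rrm1, the large subunit of ribonucleotide reductase, which makes deoxyribonucleotides, had 61.7, 52.7 and 38.2 CPM in mutants and 52.4, 34.9 and 33.7 CPM in controls. It too missed the threshold (0.14 ± 0.09 log2, adjusted p = 0.353), as did Rrm2 at -0.06 and Tyms, the thymidylate synthase gene, at 0.19. Cdt1, the licensing partner of Cdc6, had a log2 fold change of 0.77 ± 0.28 (adjusted p = 0.123). Its inhibitor geminin (Gmnn) had the lowest value of the members, -0.77 ± 0.30 (adjusted p = 0.139), with 1.22, 1.14 and 0.425 CPM in mutants and 2.07, 0.938 and 0.521 CPM in controls.

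The promoter of Cdc6 is shown because Cdc6 had the smallest adjusted p of the members and its window holds an E2F-type site, the element through which E2F factors act on replication genes. The sequence covers the 250 bases before the RefSeq start, 5′ to 3′ on the strand of the gene, at chr11:98907901-98908150 on the plus strand of GRCm38.p6, and the capitals mark the match, read on the opposite strand.
Cdc6: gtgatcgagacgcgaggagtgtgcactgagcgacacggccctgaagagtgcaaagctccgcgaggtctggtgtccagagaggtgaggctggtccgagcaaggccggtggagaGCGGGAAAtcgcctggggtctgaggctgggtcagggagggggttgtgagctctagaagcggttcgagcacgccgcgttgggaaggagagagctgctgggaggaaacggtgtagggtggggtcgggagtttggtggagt
RefSeq windows from 250 bases before to 50 bases after the start were at hand for 35 of the 42 members and for 27025 genes in all, and each motif was searched on both strands. The E2F-type motif TTTNNCGC was in 7 of 12 licensing and synthesis genes (58.3%), namely Cdc6, Cdt1, Mcm3, Mcm5, Mcm6, Mcm7 and Tyms, against 5.93% of all genes. It was in 1 of 14 mitosis genes, Cdk1 (7.14%). Of these 7 licensing and synthesis genes, Cdc6 and Mcm3 rose and the other 5 did not pass the test. An RP58-type motif, ACATCTG, was in 0 of the 35 members' windows and in 5.10% of all genes, which says only that these letters are absent from this window.

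Mitosis genes, the largest group, had the most calls by number: 6 of 16 rose (37.5%, against 7.92% of all genes tested) and 0 fell. The median log2 fold change was 0.87. The share that rose was higher among the CDK inhibitors, at 2 of 4. All 16 values were positive with the library-type term, under every scaling tried, while Birc5 was negative without the term (-0.34) and Bub1b (-0.31) and Cdc20 (-0.01) were negative without mutant 3. Summed over the 16 genes, the level was 73.9, 54.8 and 62.5 CPM in mutants 1, 2 and 3 and 42.03, 38.2 and 35.1 CPM in controls 1, 2 and 3, with no overlap between genotypes. The sums of the other groups overlapped between genotypes. Licensing and synthesis genes summed to 424.5, 395.5 and 284.4 CPM in mutants and 403.6, 273.2 and 269.4 CPM in controls. In bulk RNA, more or fewer cells of a type and more or less RNA per cell cannot be told apart.

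Mki67, which encodes the proliferation marker Ki-67, a coat of mitotic chromosomes, had 5.67, 5.18 and 9.90 CPM in mutants and 2.45, 4.06 and 4.10 CPM in controls. All 3 mutants lay above all 3 controls, at 1.21 ± 0.16 on the log2 scale (adjusted p = 0.00374). Top2a, the topoisomerase that untangles sister DNA, had 7.57, 4.96 and 10.1 CPM in mutants and 2.73, 6.13 and 5.38 CPM in controls. Here mutant 2 lay below controls 2 and 3, which are of the other library type (0.98 ± 0.23 log2, adjusted p = 0.0338). Ccnb1, the cyclin that activates Cdk1 at mitotic entry, had 5.39, 3.69 and 2.45 CPM in mutants and 2.35, 0.863 and 1.09 CPM in controls (1.12 ± 0.25 log2, adjusted p = 0.0291). Its lowest mutant was just above its highest control.

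Plk1, a kinase of mitotic entry and spindle assembly, had 2.39, 2.36 and 1.20 CPM in mutants and 1.15, 0.6997 and 0.474 CPM in controls (0.995 ± 0.25 log2, adjusted p = 0.0428). Its call was lost in each of the 6 leave-one-out fits. The kinetochore motor gene Cenpe had 2.59, 3.12 and 4.35 CPM in mutants and 1.62, 2.44 and 2.75 CPM in controls (0.77 ± 0.20 log2, adjusted p = 0.0480). Cenpf, encoding another kinetochore protein, had 4.67, 3.87 and 5.43 CPM in mutants and 2.67, 2.83 and 1.90 CPM in controls (0.93 ± 0.25 log2, adjusted p = 0.0499). In CPM the genotypes overlapped for Cenpe and not for Cenpf or Plk1. After scaling for transcript length, Cenpf in mutant 3 lay below controls 2 and 3. Ccnb1, Cenpe and Cenpf were called only without mutant 2 among the leave-one-out fits, and Top2a only without mutant 1 or mutant 2. With RLE scaling Cenpe and Cenpf lost their calls (adjusted p = 0.0507 and 0.0522), and Cenpe also lost its call without the low-count filter (adjusted p = 0.0579).

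A pair of genes lay just outside the threshold. Cyclin A2 (Ccna2), which acts in S phase and at mitotic entry, had 8.49, 5.67 and 3.58 CPM in mutants and 4.36, 1.80 and 1.61 CPM in controls (0.87 ± 0.23 log2, adjusted p = 0.0502). Aurkb, the kinase of the chromosomal passenger complex, had 1.70, 1.52 and 0.445 CPM in mutants and 0.445, 0.268 and 0.118 CPM in controls (1.39 ± 0.37 log2, adjusted p = 0.0507). DESeq2 called both, with adjusted p of 0.0168 for Ccna2 and 0.0394 for Aurkb. Cdc20, the activator of the anaphase-promoting complex, was among the more abundant mitosis genes, with 8.76, 5.24 and 5.10 CPM in mutants and 7.06, 4.18 and 3.77 CPM in controls. Its genotypes overlapped (0.17 ± 0.24 log2, adjusted p = 0.694). The remaining uncalled genes were the mitotic kinase genes Cdk1 and Aurka, the spindle checkpoint genes Bub1 and Bub1b, cyclin B2 (Ccnb2), the ubiquitin-conjugating enzyme gene Ube2c and Birc5, encoding survivin. Their log2 fold changes lay between 0.17 for Bub1b and 0.88 for Cdk1.

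Promoters of Mki67 and Top2a are shown because both genes rose and both windows hold CHR-type elements, the sites that DREAM and MuvB complexes use at mitosis genes. Both sequences are the 250 bases before the RefSeq start in GRCm38.p6, 5′ to 3′ on the gene's own strand, at chr7:135716380-135716629 (minus) for Mki67 and chr11:99024190-99024439 (minus) for Top2a. Capitals mark TTTGAA, its reverse complement TTCAAA, and the variant TTCGAA.
Mki67: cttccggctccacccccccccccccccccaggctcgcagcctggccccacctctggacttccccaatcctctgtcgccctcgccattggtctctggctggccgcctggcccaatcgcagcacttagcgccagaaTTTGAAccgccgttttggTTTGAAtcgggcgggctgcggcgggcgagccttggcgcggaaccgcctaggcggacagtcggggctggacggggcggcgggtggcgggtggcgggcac
Top2a: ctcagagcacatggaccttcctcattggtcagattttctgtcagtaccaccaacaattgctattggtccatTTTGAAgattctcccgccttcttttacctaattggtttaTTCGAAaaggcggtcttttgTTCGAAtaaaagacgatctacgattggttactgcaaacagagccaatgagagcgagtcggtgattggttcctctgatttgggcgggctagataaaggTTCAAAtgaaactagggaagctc
TTTGAA was in 10 of the 14 mitosis genes with a window (71.4%), against 20.2% of all genes, and in 1 of 12 licensing and synthesis genes, Mcm2. The 10 were Mki67, Top2a, Ccnb2, Cdk1, Aurka, Plk1, Bub1b, Cdc20, Ube2c and Cenpf, of which Mki67, Top2a, Plk1 and Cenpf rose. TTCGAA was in 4 of 35 members (11.4%), Mcm7, Top2a, Bub1 and Bub1b, against 1.80% of all genes. The CCAAT box, a common partner of these elements, was in 13 of 14 mitosis genes (92.9%), against 41.1% of all genes. A match is a description of the letters and not a bound site.

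**Figure D2:**
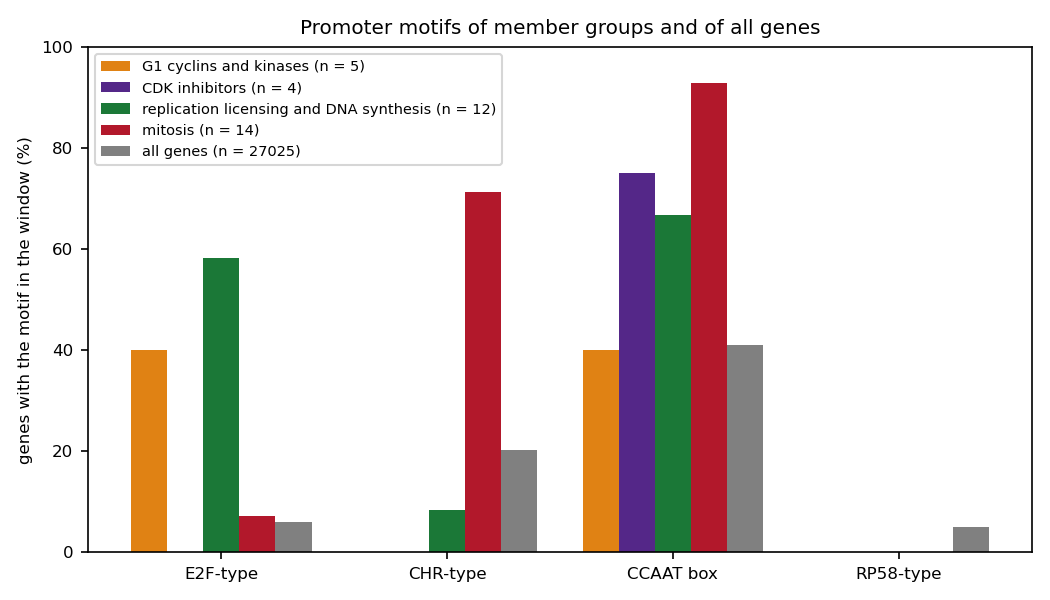
Share of genes (%, from 0 to 100) with at least 1 match on either strand between 250 bases before and 50 after the RefSeq start, for the 4 role groups and for all 27025 genes. The E2F-type motif TTTNNCGC is in 58.3% of licensing and synthesis genes, and the CHR-type motif TTTGAA in 71.4% of mitosis genes.

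Genotype effects were also estimated within each library type. Within the fixed-length libraries (mutants 1 and 2 against control 1), 3 members rose, namely E2f1, Cdc6 and Mki67, where of all genes 6.05% rose and 3.41% fell, 9.46% in all, and no member fell. Within the estimated-length libraries (mutant 3 against controls 2 and 3), 2 rose, Cdc6 and Mki67, where of all genes 4.6% rose and 3.32% fell, 7.92% in all, and no member fell. In both types the share of members that rose was near that of all genes, unlike in the fit over both types together. The fits within a type share a spread over both types, because each type holds a single library of 1 genotype. That library is assumed to vary like the others. The median log2 fold change of the members was 0.31 and 0.41 in the fixed-length and estimated-length libraries. For Cdc6 the log2 fold changes were 2.54 and 2.04, and for Mki67 they were 1.14 and 1.27. In the test of the difference between the types, 0 members were called by edgeR and 0 had an unadjusted p under 0.05, where of all genes 0.0353% had a higher and 0.118% a lower genotype effect in the estimated-length libraries, 0.153% in all.

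**Figure D3:**
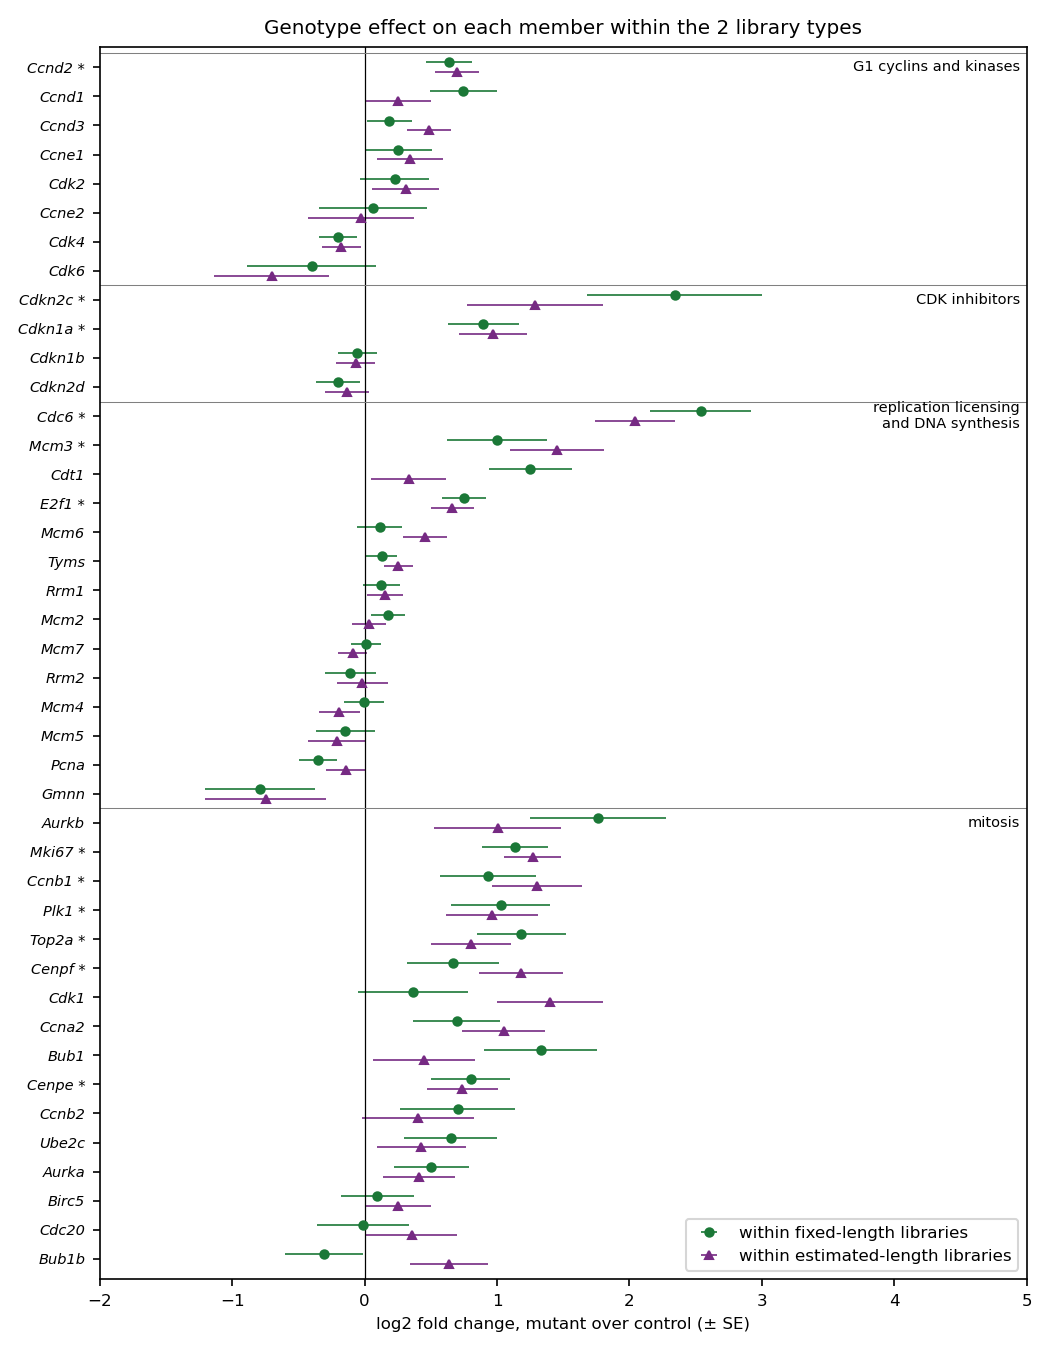
Log2 fold change, mutant over control (± SE), of each member within the fixed-length (circles) and estimated-length libraries (triangles), by role; an asterisk marks the 12 genes that rose in the fit over all 6 libraries. Mki67 is at 1.14 and 1.27, and Cdc6 at 2.54 and 2.04.

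By CPM, every mutant library lay above every control library of its own type for 25 of the 42 members. This held for 24.0% of all genes tested, and the 12 genes that rose were among the 25. The reverse, every mutant below every control of its type, held for Cdk4, Cdk6, Cdkn2d, Gmnn, Mcm5 and Pcna. The share of all genes with this reverse order was not computed. Every mutant lay above every control, of either type, for 10 members, where this held for 8.80% of all genes. These were Cdkn2c, Cdc6, Cdt1, Mcm3, Mki67, Ccnb1, Aurkb, Plk1, Bub1 and Cenpf. Cdkn2c entered the test through its mutant libraries alone, so its separation is partly set by the low-count filter. For Aurkb the lowest mutant and the highest control were nearly tied, at 0.4454 and 0.4451 CPM.

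The genes that rose were mostly scarce ones, as were the members at large. Of the 28 members with a mean below 10 CPM over the 6 libraries, 10 rose, and their median log2 fold change was 0.77. Of the 14 members at 10 CPM or above, 2 rose, E2f1 and Ccnd2, and the median was 0.03. The share of all genes called at these levels was not computed, so no trait of the members follows from these counts. Corrected for transcript length (TPM, the length-scaled unit of kallisto), Cdk4 was the highest member in every library, with 1262, 1258 and 108.8 TPM in mutants and 1312, 144.9 and 116.0 TPM in controls. The mean TPM of a member in the fixed-length libraries was 1.91 to 16.1 times that in the estimated-length libraries for mutants (median 7.67) and 1.27 to 12.9 times for controls (median 6.25), so levels were ordered within a type. Cdkn1b was the third in each of the 4 combinations of genotype and type, at 89.1, 101.3 and 12.4 TPM in mutants and 88.1, 13.6 and 14.0 TPM in controls. Cdc6 was at 1.12, 1.14 and 0.265 TPM in mutants and 0.194, 0.0541 and 0.0467 TPM in controls. Cenpf was at 2.235, 2.657 and 0.152 TPM in mutants and 1.493, 0.267 and 0.196 TPM in controls. In TPM, mutant 3 thus lay below controls 2 and 3 for Cenpf, the reverse of the order in CPM.

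**Figure D4:**
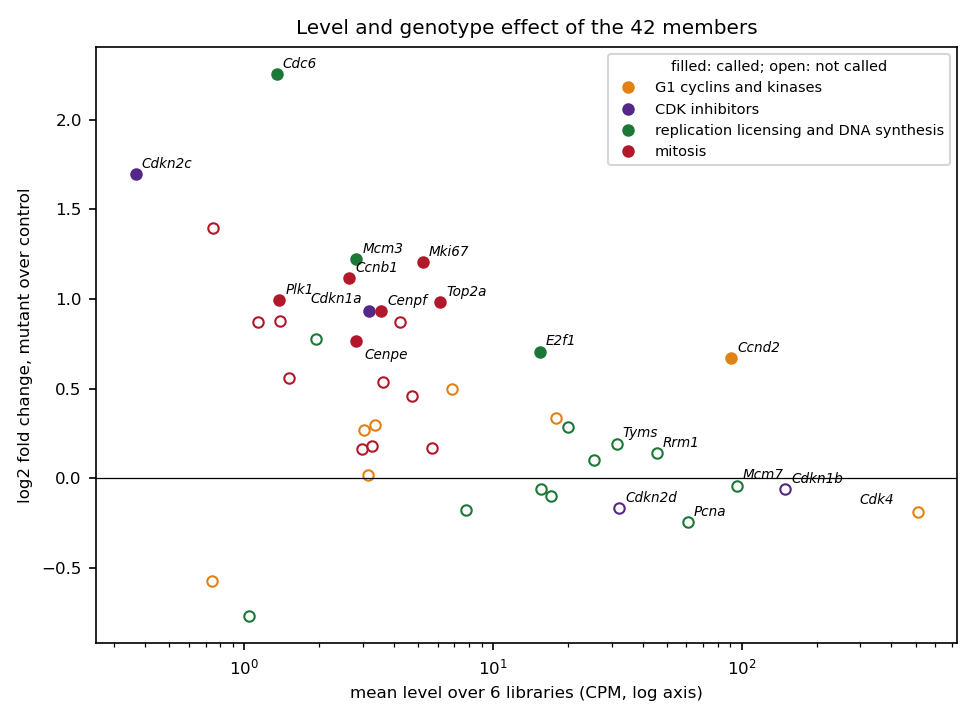
Mean level over 6 libraries (CPM, log axis) against log2 fold change, mutant over control, for the 42 members, coloured by role; filled points rose, open points did not pass the test. Filled points are mostly below 10 CPM, where the median log2 fold change was 0.77, and Ccnd2 is the called gene above 30 CPM.

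For several members the reads were divided between spliced, protein-coding models and other transcript models of the gene. Ccnb1 is an example. Its coding models took 98.9%, 90.8% and 76.8% of the counts in mutants 1, 2 and 3, and 100%, 54.0% and 25.7% in controls 1, 2 and 3. The main coding model, Ccnb1-201, had 4.71, 3.11 and 1.38 CPM in mutants and 2.02, 0.247 and 0 CPM in controls. The retained-intron model Ccnb1-206 had 0.0572, 0.267 and 0.520 CPM in mutants and 0, 0.364 and 0.732 CPM in controls. The coding models of Top2a took 84.6%, 84.5% and 73.1% of the counts in mutants, against 89.0%, 57.1% and 51.3% in controls. With protein-coding models alone, 13 members rose, where 9.69% of all genes rose. The 12 remained and Ccna2 joined them (adjusted p = 0.0397), and the log2 fold changes were 1.17 for Top2a and 2.57 for Cdc6.

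Of the 42 members, 9 are overlapped by a protein-coding gene on the opposite strand (Ccnd1, Ccnd3, Ccne2, Cdk2, Cdk4, Mcm7, Ccna2, Cdc20 and Ube2c), and none of the 9 was among the genes that rose. No source used here gives the strand setting of the counting, so values of these genes are uncertain. Ccnd3, Pcna, Tyms, Ccnb1 and Ccnb2 have named pseudogenes that could share reads, and Cdt1 is overlapped on its own strand by Gm20388.

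The wider cell cycle machinery was read from lists of genes beyond the 42 members. Of 117 other genes of G1/S control, replication and mitosis, 115 were tested, of which 6 rose (5.22%) and 5 fell, with a median log2 fold change of 0.14. That share of rises was below the 7.92% of all genes tested. Among 51 other mitosis genes 3 rose (5.88%, also below 7.92%) and 0 fell, with a median of 0.40 and 40 of 51 values positive. The largest change was in Kif4, a kinesin of mitotic chromosomes and the central spindle, with 3.09, 2.26 and 2.86 CPM in mutants and 0.477, 0.715 and 0.663 CPM in controls. All 3 mutants lay above all 3 controls for Kif4 (2.16 ± 0.26 log2, adjusted p = 0.00243), and it was called in all 6 leave-one-out fits. Cit, the citron kinase gene of cytokinesis, rose with 1.62, 1.83 and 3.77 CPM in mutants and 0.795, 1.64 and 2.08 CPM in controls (1.04 ± 0.22 log2, adjusted p = 0.0257). Pkmyt1, a kinase that restrains Cdk1, rose with 4.13, 4.02 and 3.18 CPM in mutants and 1.53, 2.13 and 2.01 CPM in controls (0.98 ± 0.25 log2, adjusted p = 0.0439). Of the leave-one-out fits, 2 of 6 called Cit and 1 of 6 called Pkmyt1.

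Among 42 other replication factors 2 rose and 2 fell, with a median log2 fold change of -0.15. Lig1, the ligase that joins Okazaki fragments, had 26.2, 26.9 and 14.1 CPM in mutants and 12.9, 5.55 and 6.85 CPM in controls. All 3 mutants were above all 3 controls for Lig1 (1.11 ± 0.13 log2, adjusted p = 0.0019), which was also called in all 6 leave-one-out fits. The checkpoint adaptor gene Clspn rose as well (1.10 ± 0.26 log2, adjusted p = 0.0345). The primase subunit gene Prim2 fell, with 19.9, 18.8 and 14.4 CPM in mutants and 28.4, 18.8 and 19.4 CPM in controls (-0.48 ± 0.09 log2, adjusted p = 0.0160). Gins4, encoding a subunit of the GINS complex of the replicative helicase, fell too (-0.37 ± 0.09 log2, adjusted p = 0.0332). The leave-one-out fits called Prim2 in 2 of 6, Clspn in 1 of 6 and Gins4 in 0 of 6.

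In the G1/S and E2F network, 1 of 23 other genes tested rose and 3 fell. Tfdp2, a dimerization partner of E2F factors, rose with 77.1, 70.7 and 63.7 CPM in mutants and 50.9, 43.5 and 37.1 CPM in controls (0.60 ± 0.10 log2, adjusted p = 0.00758). Rb1, encoding the retinoblastoma protein, fell with 81.7, 73.0 and 86.2 CPM in mutants and 101.8, 115.9 and 109.0 CPM in controls (-0.39 ± 0.08 log2, adjusted p = 0.0223). Mycn, a transcription factor that promotes progenitor growth, fell with 81.2, 91.7 and 94.6 CPM in mutants and 118.3, 126.0 and 130.6 CPM in controls (-0.45 ± 0.08 log2, adjusted p = 0.0135). Skp2, the ubiquitin ligase subunit that targets p27, fell with 6.87, 9.26 and 8.36 CPM in mutants and 12.1, 18.5 and 17.6 CPM in controls (-0.85 ± 0.19 log2, adjusted p = 0.0295). All 3 mutants lay below all 3 controls for Rb1, Mycn and Skp2. In the leave-one-out fits Rb1 and Mycn kept their calls in 2 of 6 and Skp2 in 1 of 6, while Tfdp2 lost its call only without mutant 3 (adjusted p = 0.0860).

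Intermediate progenitor markers were higher in mutants, as the mitosis genes were, while radial glia markers went both ways. Of 12 intermediate progenitor markers 9 rose and 0 fell, and their summed level was 1609, 1348 and 1037 CPM in mutants against 715.4, 462.7 and 483.0 CPM in controls, with no overlap. Of 12 radial glia markers 5 rose and 3 fell, with overlapping sums of 249.2, 241.6 and 141.0 CPM in mutants and 255.3, 123.3 and 140.1 CPM in controls. Of 12 markers of postmitotic neurons 2 rose and 6 fell, with sums of 9178, 8330 and 6057 CPM in mutants and 11030, 8486 and 8199 CPM in controls, and the neuronal sums were the largest of the marker lists in every library. The part of these lists in the results on the members was not tested.

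Markers of cells other than the cortical excitatory lineage were low. Interneuron markers summed to 13.5, 14.7 and 16.1 CPM in mutants and 2.51, 6.25 and 5.61 CPM in controls, where 2 of 7 tested rose and Gsx2 was at 0 in every library. Oligodendrocyte precursor markers, 2 of 2 tested of which rose, lay between 1.56 and 3.75 CPM in mutants and between 0.827 and 1.21 CPM in controls, with Sox10 at 0. Meningeal markers, 1 of 4 of which rose, lay between 2.82 and 4.48 CPM in mutants and between 1.37 and 2.27 CPM in controls. The meningeal gene that rose, Pdgfra, is also on the oligodendrocyte precursor list. Interneuron, oligodendrocyte precursor and meningeal sums did not overlap between genotypes. Endothelial and mural markers, 1 of 5 of which rose, lay between 1.89 and 5.02 CPM in mutants and between 1.53 and 3.53 CPM in controls. Microglial and erythroid markers had 0 calls, at sums between 1.02 and 4.43 CPM and between 6.002 and 20.9 CPM in mutants, against 2.003 to 3.65 CPM and 6.64 to 11.4 CPM in controls. Their part in the results was likewise not tested.

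**Figure D5:**
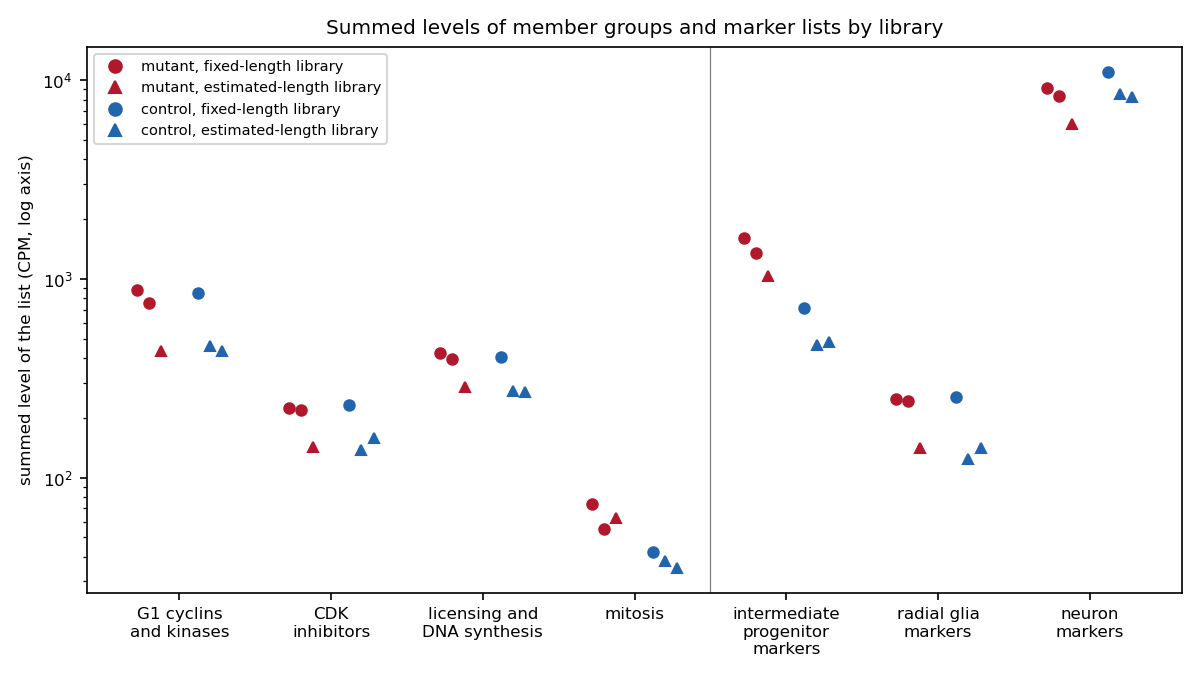
Summed level (CPM, log axis) of the 4 role groups, left of the line, and of 3 marker lists, right of it, in each mutant (red) and control (blue) library; circles are fixed-length and triangles estimated-length libraries. Mitosis genes (54.8 to 73.9 CPM in mutants, 35.1 to 42.03 CPM in controls) and intermediate progenitor markers (1037 to 1609 CPM in mutants, 462.7 to 715.4 CPM in controls) separate by genotype.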

How the data were processed

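Stranded total RNA libraries were sequenced per the labels' protocols. FastQC and kallisto were used with the mm9 build, per the submitters' processing notes; versions and the strand setting are not given in the sources used here. Each deposited table lists 97251 transcripts with length and effective length in bases, an estimated count, which the authors left without further normalization, and a TPM value, which the authors' files scale by effective length and total, per the file headers. Transcripts were matched to GENCODE vM21 genes by identifier (84637, or 87.0%). GENCODE vM21 gave gene names, chromosomes, transcript types, and the gene positions and strands from which overlaps between genes were read. Its build differs from the mm9 build of the processing notes. Unmatched transcripts took 6.85% to 8.58% of counts and were not tested. These counts were added up by gene and rounded to whole numbers.

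edgeR 4.0.16 in R 4.3.3 was used with TMM scaling, filterByExpr, a prior count of 2, and genotype plus library type as terms, where the common biological coefficient of variation was 0.186, against 0.701 without the type term. DESeq2 1.42.0 was an alternative. Calls needed an adjusted p (Benjamini-Hochberg, over all 16985 genes tested) under 0.05. Library type was read from effective lengths, not from any gene's level, and no source used here says what made the types differ. Each standard error is the log2 fold change over the root of F. The fits were tested on simulated data. The 42 members, the lists and the library-type term were chosen with earlier results of these data known. Values in every library are given for called members, the 3 most abundant members of each role group, Zbtb18, and up to 4 called genes of each pathway list. Ccna2, Aurkb and Gmnn were named after their values were seen. All members passed the low-count filter, and Cdkn2c did so through the mutant libraries alone. Aurkb was over the cut of this filter in 3 mutant and 2 control libraries. Promoter windows came from RefSeq on GRCm38.p6. CPM values are of TMM-normalized libraries. Leave-one-out fits, other scalings, no filter, coding genes alone, and coding transcript models alone (chosen after seeing the data) were also run.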

Additional observations from a re-analysis of the deposited data

How the results depend on the processing

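Of all genes tested, 2537 were called with the library-type term, against 400 without it and 3894 by DESeq2 with it. Leaving out 1 library gave between 1294 and 3034. The 12 members called became 0 without the term and between 2 and 11 when 1 library was left out. The other settings kept the count between 11 with RLE scaling and 14 with DESeq2, upper-quartile scaling or nuclear protein-coding genes alone. With RLE scaling Cenpe and Cenpf lost their calls and Aurkb gained one, and without the low-count filter Cenpe lost its call. Without the term, DESeq2 called 1024 genes and 1 member, and leaving out 1 library gave between 84 and 329 genes and 0 members. No called member changed sign in any alternative run here. Uncalled members changed sign as follows. Without the term the log2 fold changes were -0.069 for Ccne2, 0.10 for Cdk4, 0.11 for Cdkn1b, 0.21 for Cdkn2d, 0.26 for Mcm7, 0.079 for Pcna, -0.19 for Tyms, 0.12 for Rrm2 and -0.34 for Birc5. Ccne2 was at -0.014 with DESeq2 and at -0.012 with RLE scaling. With 1 library left out, the range was -0.15 to 0.15 for Ccne2, -0.071 to 0.011 for Mcm7, -0.131 to 0.018 for Rrm2, -0.31 to 0.66 for Bub1b and -0.012 to 0.376 for Cdc20. The cause was not tested. Fits that leave out control 1 or mutant 3 draw the genotype effect from 1 library type. No paired analysis was possible because the sample titles carry no number shared by the genotypes, and the replicate numbers used here only follow the order of deposition. Depth limits Cdkn2c, which had 3 to 10 counts in controls.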
